A study of Mus musculus with 12 samples.

Results

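Mouse embryonic stem cells of 1 line, TT-FHAgo2, were sequenced with both small-RNA cloning protocols of the study, and their libraries are compared here. The comparison takes 3 of the 12 libraries: 1 library made by ligation, which needs a phosphate at the 5′ end of the RNA, and 2 inputs made by a circularization protocol that takes RNA whatever its 5′ end. They were chosen by their labels alone, as the total-RNA libraries of the same line at the same doxycycline dose of 2.5 µg/mL. TT-FHAgo2 is a clonal line that makes Ago2, the Argonaute protein that binds miRNAs, with FLAG and HA tags from a doxycycline-switched gene. By the series text its cells are otherwise without Ago proteins, and by the labels they were propagated at a lower doxycycline dose and then induced to the level of Ago2 in wildtype cells. In every library total RNA was extracted with Trizol and small RNA was cut from a gel. The ligation library shares its title code with the other 3 ligation libraries, and inputs 1 and 2 each share theirs with 1 of the TT-Ago2 inputs. Reads of the ligation library end at 40 nt, against 50 nt in input 1 and 51 nt in input 2. Protocol, title code and read length therefore go together in these 3 libraries, and their parts in any difference cannot be told apart. The labels do not say whether the libraries came from separate cultures, so a test measures the spread between libraries only. The other 3 ligation libraries (the same line without doxycycline, wildtype cells and Dicer-null cells) and the 2 circularization inputs of the TT-Ago2 line, whose Ago2 has no tag, are given as context.

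RNA-cleaving enzymes such as Drosha, Dicer and RNase P leave a 5′ monophosphate, so mature miRNAs and tRNAs carry one, and so do the many snoRNAs that are trimmed out of introns. RNA polymerase II products such as U1 and U2 snRNA begin with a cap, and RNA polymerase III products such as 5S rRNA begin with a triphosphate or a methylated phosphate. RNA ligase joins an adapter to a 5′ monophosphate. In circularization the adapter is joined to the cDNA, so that the 5′ end of a read is the place where reverse transcription ended. The cell adds CCA to the 3′ end of every tRNA.

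The sequences below show which piece of a small RNA gave the most exactly matched reads under each protocol. Each gene is printed on 2 lines as its GENCODE M21 transcript (GRCm38), 5′ to 3′. The ligation library's most frequent read is in capitals on the first line, and that of the inputs, by their mean, on the second. Only reads that match the transcript exactly were ranked, so tRNA reads that end in the added CCA are left out. The genes were picked after their values were seen. Snord14c (chr9:40803583-40803668, plus strand) and Snord80 (chr1:161037601-161037681, plus strand) are box C/D snoRNAs, which guide 2′-O-methylation of other RNAs. Gm25117 (chr10:111481493-111481636, plus strand) was classed as a box H/ACA snoRNA, the kind that guides pseudouridylation. The mitochondrial tRNAs mt-Ts1 (chrM:6870-6938, minus strand) and mt-Ty (chrM:5260-5326, minus strand) carry serine and tyrosine. Rnu1 (chr3:96460024-96460189, minus strand) is the capped U1 snRNA of the spliceosome.
Snord14c, ligation: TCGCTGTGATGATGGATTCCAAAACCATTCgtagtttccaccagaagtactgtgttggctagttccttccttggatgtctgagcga
Snord14c, inputs: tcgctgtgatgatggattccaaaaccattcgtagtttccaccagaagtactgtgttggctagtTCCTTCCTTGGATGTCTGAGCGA
Snord80, ligation: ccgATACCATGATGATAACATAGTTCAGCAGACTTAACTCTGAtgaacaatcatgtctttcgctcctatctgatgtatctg
Snord80, inputs: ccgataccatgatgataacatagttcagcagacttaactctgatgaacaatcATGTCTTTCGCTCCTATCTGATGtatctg
Gm25117, ligation: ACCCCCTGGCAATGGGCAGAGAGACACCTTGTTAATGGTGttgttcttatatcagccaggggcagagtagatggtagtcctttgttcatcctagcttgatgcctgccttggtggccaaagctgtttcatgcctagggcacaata
Gm25117, inputs: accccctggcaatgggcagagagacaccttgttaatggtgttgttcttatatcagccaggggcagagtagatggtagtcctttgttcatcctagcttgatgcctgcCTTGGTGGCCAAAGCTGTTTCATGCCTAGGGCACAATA
mt-Ts1, ligation: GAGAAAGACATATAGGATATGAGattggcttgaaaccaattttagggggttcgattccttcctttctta
mt-Ts1, inputs: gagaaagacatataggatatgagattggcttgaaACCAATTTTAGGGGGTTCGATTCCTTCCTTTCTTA
mt-Ty, ligation: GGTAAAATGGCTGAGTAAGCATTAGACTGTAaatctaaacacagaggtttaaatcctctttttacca
mt-Ty, inputs: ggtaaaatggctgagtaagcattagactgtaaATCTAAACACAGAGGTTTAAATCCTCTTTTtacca
Rnu1, ligation: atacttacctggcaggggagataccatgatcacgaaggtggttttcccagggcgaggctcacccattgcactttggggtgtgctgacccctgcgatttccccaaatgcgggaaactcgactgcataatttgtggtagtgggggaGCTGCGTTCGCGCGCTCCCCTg
Rnu1, inputs: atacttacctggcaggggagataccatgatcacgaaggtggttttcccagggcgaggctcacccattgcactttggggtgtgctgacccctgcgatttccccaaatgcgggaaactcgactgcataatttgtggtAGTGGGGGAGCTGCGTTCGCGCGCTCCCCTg

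In 5 of these 6 genes the ligation library's most frequent read began within the first 4 nt of the gene, while the inputs' most frequent read lay in its 3′ part. The ligation read of Snord14c and Snord14d, which share it, covered positions 1 to 30 and made up 44.97% of the gene's reads in the ligation library, against 1.09% in input 1 and 1.20% in input 2. Their inputs' read covered positions 64 to 86, up to the annotated 3′ end. It made up 0.578% of the gene's reads in the ligation library, against 34.0% and 31.8% in inputs 1 and 2. For Snord80 the read at positions 4 to 43 made up 54.3% in the ligation library and was not seen in either input, and the read at positions 53 to 75 made up 1.22% in the ligation library, against 38.5% and 50.6% in the inputs. For Gm25117 the corresponding pieces were positions 1 to 40, with 96.2% of its ligation reads and none in the inputs, and positions 107 to 144, with none in the ligation library and 70.2% and 70.1% in the inputs. In mt-Ts1 and mt-Ty the ligation reads at positions 1 to 23 and 1 to 31 held 41.6% and 25.5% of the ligation library's reads of these tRNAs. Rnu1 was the exception: its leading ligation read covered positions 145 to 165 (13.7% of the ligation library's Rnu1 reads) and its leading input read positions 136 to 165 (1.39% in the ligation library, against 16.5% and 23.4% in inputs 1 and 2), so that neither began at the cap. As the 6 genes were picked, their count does not say how common the pattern was. Genes not shown could differ. The leading input read of mt-Ts2, seen in input 1 only, covered positions 1 to 50. In Rnu7 the leading ligation read covered positions 22 to 61 and the leading input read 1 to 50. Snora21 had its leading ligation read at positions 119 to 137, its 3′ end. Reads of 40 nt end where sequencing stopped in the ligation library, and the molecule may have been longer.

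The mature miRNAs on which the hairpin results turn are shown with the seed, bases 2 to 8, in capitals, since the seed pairs with target mRNAs. They are RefSeq sequences on GRCm38.p6, 5′ to 3′. The first 7 are from the miR-290-295 cluster on chromosome 7, plus strand, between miR-290a-5p (chr7:3218639-3218660) and miR-295-3p (chr7:3220815-3220837), and the others lie elsewhere. The RefSeq table used has no entry for miR-292a-3p, which is named only.
miR-292a-5p: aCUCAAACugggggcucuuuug
miR-293-5p: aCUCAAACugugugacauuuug
miR-290a-5p: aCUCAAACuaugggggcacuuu
miR-293-3p: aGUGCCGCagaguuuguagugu
miR-294-3p: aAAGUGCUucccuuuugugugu
miR-291a-3p: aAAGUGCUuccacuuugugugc
miR-295-3p: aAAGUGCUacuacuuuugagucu
miR-21a-5p: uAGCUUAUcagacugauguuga
miR-7a-5p: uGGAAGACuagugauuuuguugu
miR-182-5p: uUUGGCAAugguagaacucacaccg
miR-96-5p: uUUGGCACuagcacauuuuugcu
miR-92a-3p: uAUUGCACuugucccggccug
The 5p arms of Mir292, Mir293 and Mir290a share the seed CUCAAAC, and the 3p arms of Mir294, Mir291a and Mir295 the seed AAGUGCU.

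By share of all reads, box C/D snoRNA stood out. It made up 13.4% of the ligation library, against 0.571% of input 1 and 0.407% of input 2, a ratio of 27.5 to the inputs' mean. All 4 ligation libraries lay between 12.9% and 14.4%, and all 4 inputs of both lines between 0.407% and 0.571%, so the ranges were far apart also outside this pair of groups. Box H/ACA snoRNA with scaRNA made up 0.531%, against 0.141% and 0.101% of the inputs, and snoRNA genes that fell into neither box class 0.628%, against 0.0201% and 0.0172%. Mitochondrial rRNA and mRNA made up 0.486%, against 0.109% and 0.0529%. An exact two-sided permutation test of 1 library against 2 cannot go below p = 0.333, and each class in this paragraph gave that value, which cannot reach 0.05. As these are shares of bulk libraries, fewer cells and less RNA per cell cannot be told apart, and a share also moves when another class moves.

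miRNA hairpins, the precursors from which Dicer releases miRNAs, took 10.3% of the ligation library, against 3.07% and 1.81% of the inputs. The other 3 ligation libraries, of other cells or without doxycycline, ran from 1.30% to 21.1%. Of the distinct sequences, each counted once, the share in hairpins was lower in the ligation library than in the inputs' mean, with a ratio of 0.70. snRNA, the RNA of the spliceosome, took 1.60%, against 0.915% and 0.751%, but the TT-Ago2 inputs had 0.802% and 2.60%, so the 4 inputs overlapped the ligation library. Annotated rRNA genes took 5.74%, against 4.06% and 4.39%, a direction that turned with each distinct sequence counted once (ratio to the inputs' mean 0.728) and with sequences of several classes set apart (0.988). Other protein-coding reads took 5.59%, against 2.67% and 1.87%, whereas reads that began in the first 200 nt of a protein-coding transcript took 0.195%, against 0.343% and 0.423%. A single gene, Itsn1, gave 0.0129% of these start-window reads in the ligation library, against 17.2% and 41.3% in inputs 1 and 2. Without Itsn1 the shares of the start windows were 0.195%, against 0.284% and 0.248%. As shares of the matched reads alone, the ratio fell below 1 for rRNA (0.407), snRNA (0.584) and other protein-coding reads (0.753).

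**Figure D1:**
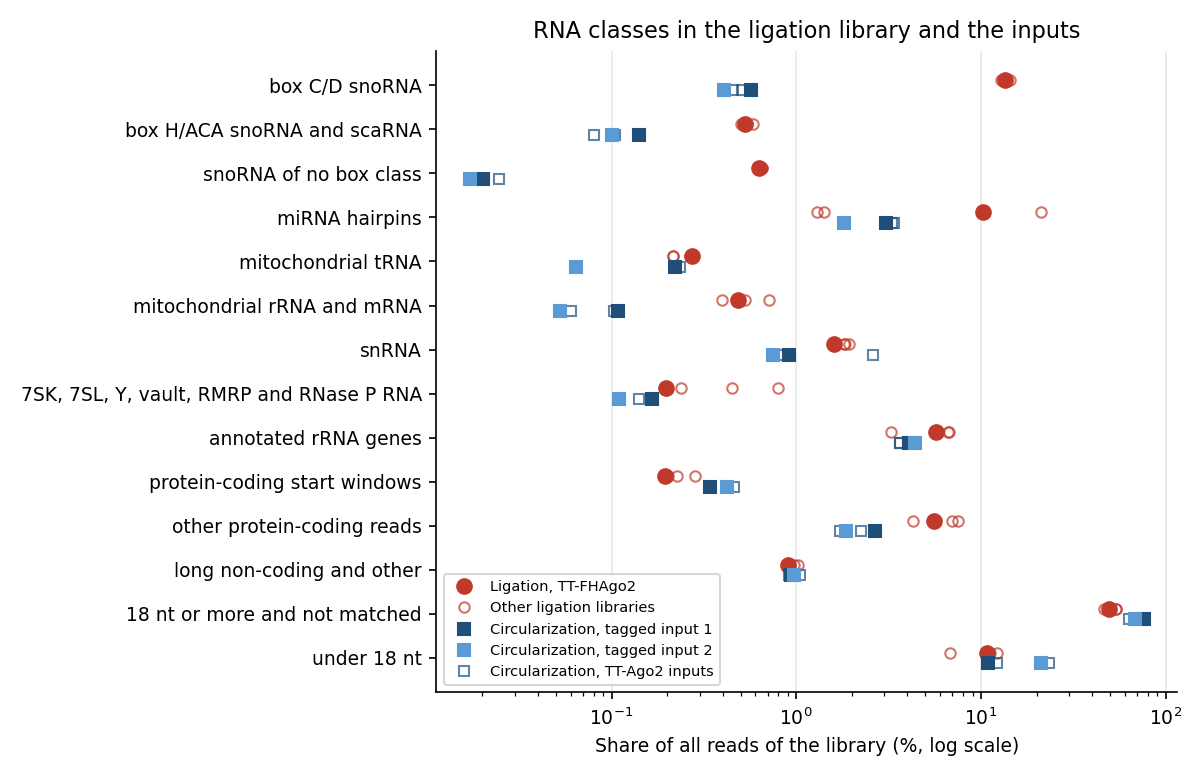
Share of all reads (x axis, %, log scale) in each RNA class (y axis). Filled circles are the ligation library, filled squares inputs 1 and 2, and open symbols the other ligation libraries and the TT-Ago2 inputs. Box C/D snoRNA lies at 13.4% in the ligation library, against 0.571% and 0.407% in the inputs.

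Of all reads, 39.9% matched an annotated transcript in the ligation library, against 13.2% and 10.96% in the inputs. Reads of 18 nt or more without a match made up 49.3%, against 75.9% and 68.0%. The annotation used here holds no nuclear tRNA genes and no 45S rRNA gene of its own, so these RNAs are among the unmatched reads. Much of that remainder differed at its 3′ end. Of all reads, of any length, 1.46% ended in CCA in the ligation library, against 18.2% and 18.8% in the inputs. Of the unmatched reads of 18 nt or more, 1.90% did, against 21.7% and 24.4%. Among reads of exactly 18 nt, 1.78% ended in CCA in the ligation library, against 74.8% and 68.3% in inputs 1 and 2.

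Where a read began within its gene differed as much as how often the gene was read. Of box C/D snoRNA reads, 60.8% had their 5′ end in the first 5 nt of the gene in the ligation library, against 15.0% and 4.40% in the inputs. For box H/ACA snoRNA these shares were 30.1%, against 1.08% and 1.03%, and for mitochondrial tRNA 94.0%, against 17.1% and 3.87%. Mitochondrial tRNA reads that end in the added CCA do not match the annotation, and all shares in this paragraph leave them out. The 3′ shares ran the other way, but they also depend on where sequencing stopped. A read cut off there does not show the 3′ end of its molecule, and such reads were more frequent in the ligation library. Their part in the lower 3′ shares cannot be read from these values, so the 3′ shares are not a result independent of read length. Reads that ended in the last 5 nt made up 21.5% of box C/D reads in the ligation library, against 57.5% and 64.2% in the inputs, 58.5% of box H/ACA reads, against 90.5% and 93.3%, and 2.07% of mitochondrial tRNA reads, against 41.1% and 44.3%. With reads of 18 to 37 nt alone, the lengths that all 3 libraries hold, the 5′ shares were 31.8% for box C/D, against 5.63% and 3.97%, and 94.5% for mitochondrial tRNA, against 5.76% and 3.61%. This restriction was chosen after the data were seen, and it is not given for the 3′ shares.

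For RNAs that begin with a cap or a triphosphate the sums over all genes did not lie above both inputs at the 5′ end, although single genes did, as given further on. The capped snRNAs and snoRNAs had 4.51% of their reads in the first 5 nt in the ligation library, which lay between input 1 with 10.1% and input 2 with 0.548%, and its ratio to the inputs ran from 0.447 to 8.23 when either one was left out. Triphosphate and methyl-phosphate RNAs had 6.70%, below both inputs with 15.4% and 18.8%, and start windows of protein-coding genes 4.72%, between 5.77% and 2.31%. For 3′ ends the same limit by read length holds. Of the capped RNAs' reads, 20.1% ended in the last 5 nt in the ligation library, against 73.5% and 82.6% in the inputs. The triphosphate RNAs had 66.0%, against 41.9% and 26.6%. The triphosphate sum is dominated by 5S rRNA (Rn5s), which had 69.1% of its reads ending there in the ligation library, against 38.9% and 18.3%.

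**Figure D2:**
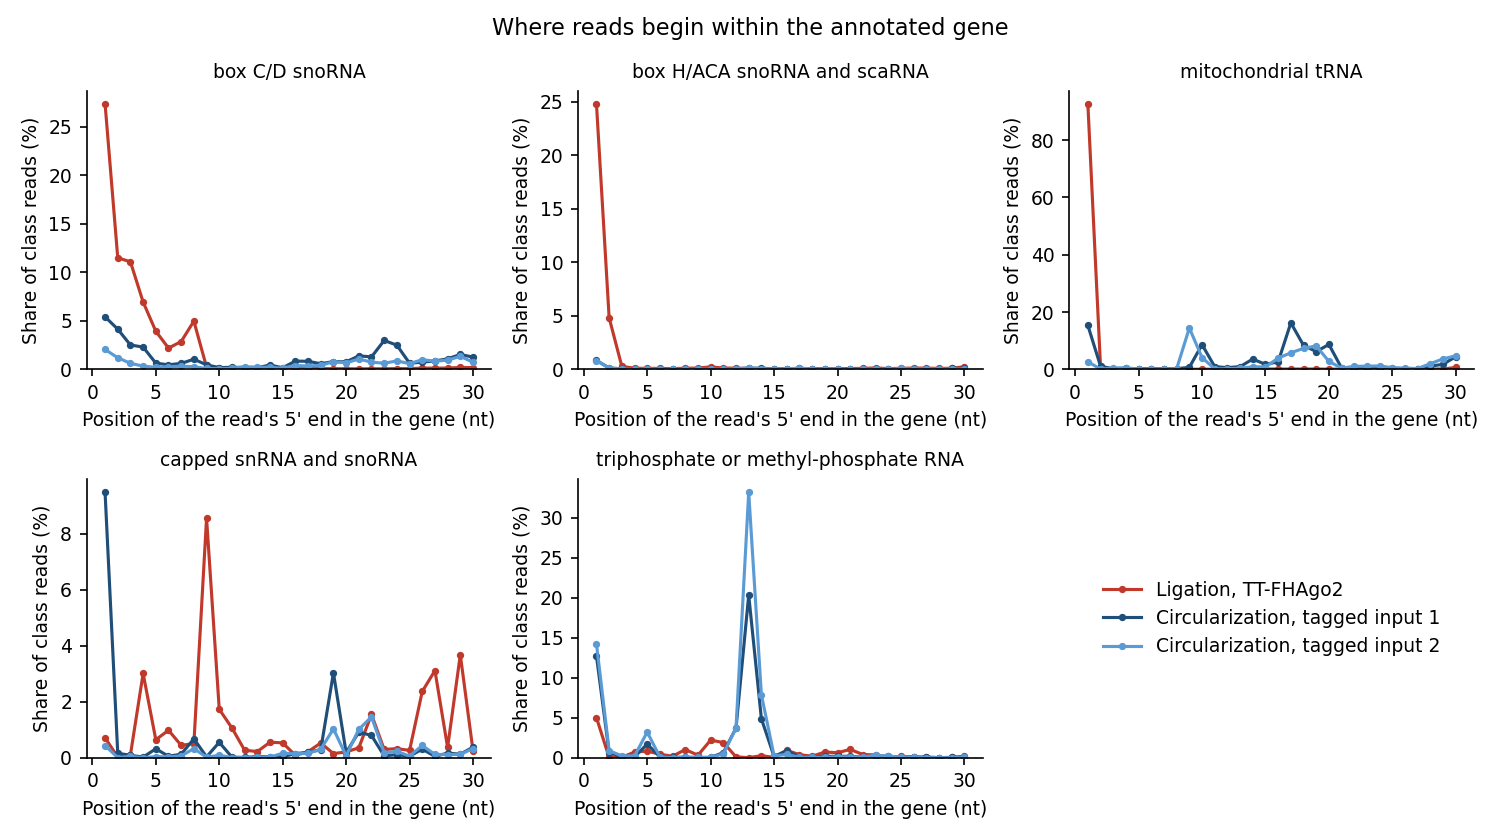
Share of the reads of each RNA class (y axis, %) whose 5′ end lies at each of the first 30 positions of the annotated gene (x axis, nt). Lines are the ligation library and inputs 1 and 2. In the ligation library 94.0% of mitochondrial tRNA reads begin in the first 5 nt, against 17.1% and 3.87% in the inputs. CCA-ended reads are left out. For capped RNA the ligation library's 4.51% lies between the inputs.

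Single genes were compared where each of the 3 libraries held at least 100 reads. Of 106 box C/D genes, 87 had a larger share of reads in their first 5 nt in the ligation library than in either input and 4 a smaller share than in either. The median share was 51.4%, against 5.55% and 2.25%. In 57 of these genes that share reached 50% in the ligation library, and in 8 it did so in at least 1 input. Snord49a had 94.3%, against 1.15% and 1.45%, Snord80 79.2%, against 0.275% and 0.0745%, and Snord14c with Snord14d 87.9%, against 14.1% and 15.6%. In 15 box C/D genes it stayed under 5% in all 3 libraries. One of them is Gm26224, where 63.0% of ligation reads began at position 8, so that the annotated start and the read start differ there.

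Box H/ACA genes split more. Of 30, 24 had a larger 5′ share in the ligation library than in either input, but the median was 6.32%, against 0.290% and 0.168%, and 14 genes stayed under 5% in all 3 libraries. Gm25117 had 98.5%, against 0 in both inputs, and Gm22711 74.2%, against 0.294% and 0.596%. Snora21 kept to its 3′ end under both protocols: 95.5% of its ligation reads ended in the last 5 nt, against 97.5% and 99.3%. The 14 mitochondrial tRNAs with enough reads all had a larger 5′ share in the ligation library than in either input, with a median of 66.3%, against 1.60% and 0.565%.

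Among capped RNAs, 5 of 8 genes lay above both inputs and 2 below both, and none reached 50% in the ligation library. Rnu5g, of the U5 snRNA family, had 24.9%, against 11.5% and 3.82%. Rnu2-10, a U2 gene, had 1.66%, against 0.891% and 1.13%, and Rnu1 0.557%, against 0.381% and 0.162%. Rnu7, the U7 snRNA of histone mRNA processing, had 11.2%, against 52.4% in input 1 and 0.702% in input 2, so the inputs differed from each other more than from the ligation library. Among the triphosphate RNAs, 5 of 9 lay above both inputs. The Y RNAs Rny1 and Rny3 had 35.9% and 32.6% in the ligation library, against 15.9% and 8.90% in input 1 and 6.60% and 6.44% in input 2. Rn5s had 5.15%, against 15.4% and 21.2%, and the 7SK RNA Rn7sk 1.74%, against 1.74% and 0.722%.

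Mitochondrial tRNAs allow both ends to be counted in the same gene. CCA is not in the genome, so CCA-ended reads were found by removing it. They are not in the class share, the end shares above, or the mitochondrial tRNA lengths and tested counts below. Over all 22 mitochondrial tRNAs, reads that begin at the 5′ end summed to 2559 CPM (counts scaled to a library total of 1000000 reads) in the ligation library, against 374.7 and 24.8 CPM in inputs 1 and 2. Reads that end in the added CCA summed to 96.3 CPM, against 8007 and 4256 CPM. The ligation library therefore held more 5′ pieces and fewer 3′ pieces. With the CCA-ended reads included, mitochondrial tRNA took 0.282% of the ligation library, against 1.02% and 0.490% of the inputs; without them it took 0.272%, against 0.220% and 0.0639%. The direction thus turned with the way the 3′ ends were matched.

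Over single tRNAs, 5′ pieces were more frequent in the ligation library than in either input for 18 of 22 and less frequent for 1, while CCA-ended reads were less frequent for 21 and more frequent for none. The serine tRNA mt-Ts2 gave most of the 5′ pieces, with 2125 CPM, against 313 and 4.79 CPM. Its partner mt-Ts1 had 225 CPM, against 0.334 and 0.0538 CPM, and the isoleucine tRNA mt-Ti 92.0 CPM, against 1.14 and 0.215 CPM. A count of 3 reads makes 0.201 CPM in input 1 and 0.161 CPM in input 2, so the mt-Ts1 value of input 2 rests on fewer reads than that. At the other end of the molecule, the glutamate tRNA mt-Te had 23.0 CPM of CCA-ended reads, against 2175 and 879 CPM, and mt-Ty 0.934 CPM, against 853 and 110 CPM. The methionine tRNA mt-Tm was the only one with fewer 5′ pieces than both inputs, at 3.31 CPM, against 43.1 and 15.0 CPM. The tryptophan tRNA mt-Tw had 11.8 CPM of CCA-ended reads, between 105 and 5.17 CPM. For mt-Tr, the arginine tRNA, no 5′ piece was read in any of the 3 libraries.

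**Figure D3:**
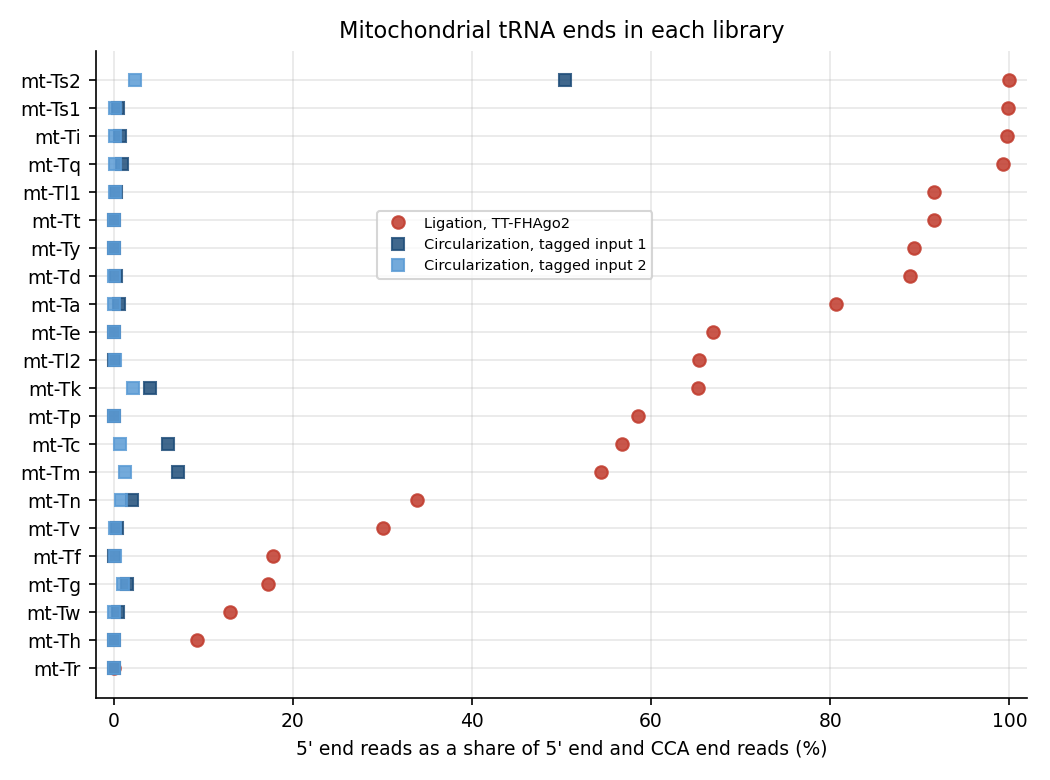
For each of the 22 mitochondrial tRNAs (y axis), reads at the 5′ end as a share of reads at the 5′ end and reads ending in CCA (x axis, %). Circles are the ligation library and squares inputs 1 and 2. In 21 of 22 tRNAs the circle lies to the right of both squares, and mt-Tr is at 0 in all 3.

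Read lengths differed between the protocols outside the hairpins. Of reads of 18 to 39 nt, 12.5% were 18 to 19 nt long in the ligation library, against 27.5% and 33.2% in the inputs, and 32.9% were 30 to 37 nt long, against 15.6% and 13.6%. The share of 20 to 24 nt was 34.1%, between 34.5% in input 1 and 31.8% in input 2. The median length was 25 nt, against 23 and 22 nt. Within hairpins the median was 22 nt in all 3 libraries, and 93.4% of reads were 20 to 24 nt long in the ligation library, against 89.5% and 85.3%. For rRNA genes the median was 28 nt, against 21 and 19 nt, and for other protein-coding reads 29 nt, against 20 and 18 nt. Of mitochondrial tRNA reads 63.4% were 25 to 29 nt long, against 20.7% and 24.9%. Reads at the read end made up 20.6% of the ligation library, against 6.25% and 1.69%, and the ligation library holds no reads of 38 or 39 nt.

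**Figure D4:**
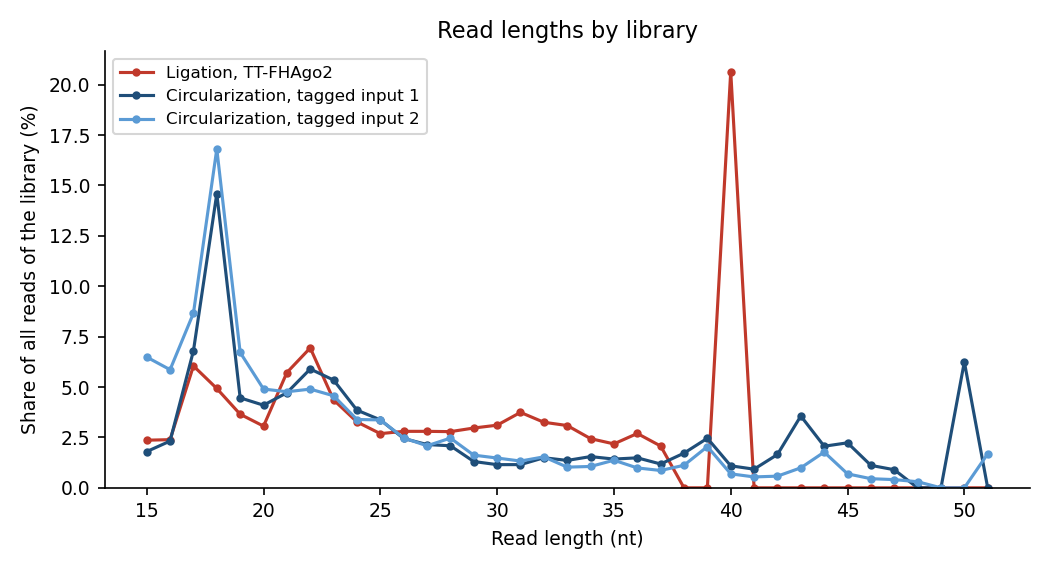
Share of all reads of each library (y axis, %) by read length (x axis, nt). The inputs peak at 18 nt, where 74.8% and 68.3% of their reads end in CCA, and the ligation library at its read end of 40 nt, which holds 20.6% of its reads.

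Some bases at both ends differed between the ligation library and both inputs, but not all. Reads that began with C made up 27.3% in the ligation library, against 15.8% and 16.6% in the inputs. Reads that began with G made up 17.1%, close to input 2 with 17.2% and under input 1 with 24.9%. At the 3′ end, T was the last base of 43.6%, against 17.7% and 12.6%, and A of 15.7%, against 36.8% and 37.05%. Within hairpins a first T, which is U in the RNA, made up 37.2%, against 22.5% and 24.5%, and a first A 54.8%, against 67.5% and 65.8%. Among reads of 20 to 24 nt the ratio of the C share turned to 0.96 and that of the A share to 1.96.

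Counts per gene were fitted with edgeR's quasi-likelihood test, with the 4 inputs giving the spread and the lone ligation library assumed to vary like them. Of 528 small RNA genes outside hairpins, scaled to all reads, 269 were higher in the ligation library (50.9% of those tested) and 29 lower (5.49%) at an adjusted p under 0.05. The ligation library lay above both inputs in 393 genes (74.4%) and below both in 90 (17%). The median gene had a log2 fold change of 2.70. Scaled to the reads of the tested classes the split was 98 higher and 48 lower (median 0.32), with TMM factors 90 and 80 (0.19), and with DESeq2 100 and 112 (-0.13).

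By class, 135 of 168 box C/D genes were higher and 2 lower, with a median log2 fold change of 4.15. The box C/D median remained above 0 when the tested classes' own reads (2.22), TMM factors (1.58) or DESeq2 size factors (1.71) set the scale, with 71, 65 and 73 genes higher and 4, 7 and 10 lower. For snoRNA genes of neither box class 18 of 31 were higher and none lower, with a median of 3.35 that was 1.42, 0.77 and 0.90 under the same 3 scalings. Box H/ACA genes had 60 of 144 higher and 8 lower with a median of 2.15, but that median was -0.22, -0.37 and -0.62 under the other scalings. snRNA genes had 36 of 93 higher and 8 lower with a median of 1.72, which turned to -1.02, -0.76 and -1.59. Mitochondrial tRNAs went the other way, with 2 of 22 higher and 4 lower and a median of -2.16, and -4.07, -4.61 and -4.48 under the other scalings.

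Of the 8 named genes with the largest increases, 5 were snoRNAs and 3 were groups of snRNA copies. The 528 genes tested held 168 box C/D, 144 box H/ACA, 31 snoRNA genes of neither class and 93 snRNA genes. As snoRNAs were also most of the genes tested, the count of 5 does not set them apart. Snord47 had 1518 CPM in the ligation library, against 2.74 and 3.28 CPM in the inputs, a log2 fold change of 8.97 (SE 0.69, adjusted p = 0.000888). Gm24299 had 3112 CPM, against 10.6 and 4.36 CPM (8.70, SE 0.82, adjusted p = 0.000888). Snord49a, Snord14c with Snord14d, and Snord80 are not among these 8 and were picked for their read ends or sequences. Snord49a had 6705 CPM, against 169 and 70.6 CPM, and Snord14c with Snord14d 4020 CPM, against 110 and 94.5 CPM. Snord80 had 4850 CPM, against 170 and 361 CPM. The 5 snoRNA entries given here lay above both inputs by more than the inputs differed from each other. Of the snRNA copies, Gm24871 with Gm25099 had 254 CPM, against 0.802 and 1.02 CPM (8.11, SE 0.74, adjusted p = 0.000888). Gm23744 with Gm25360 and Gm25813 had 39.9 CPM, against 0.134 CPM in input 1 and no read in input 2. Reads shared by Gm22973, Gm24763, Gm25360, Gm25813 and Gm25939 had 10.3 CPM, against no read in either input. These copies share reads, so the split between them is uncertain. Among the largest decreases, Gm22711, classed as H/ACA, had 8.48 CPM, against 137 and 171 CPM (-4.18, SE 0.76, adjusted p = 0.00407). Snora65, an H/ACA snoRNA, had 4.56 CPM, against 173 and 61.5 CPM (-4.68, SE 1.03, adjusted p = 0.00852), and mt-Tm 4.92 CPM, against 208 and 80.6 CPM (-4.87, SE 1.01, adjusted p = 0.00688).

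Capped RNAs were not uniformly low in the ligation library. Rnu5g had 2001 CPM, against 131 and 193 CPM (3.63, SE 0.64, adjusted p = 0.00385), the snoRNA Snord13 126.4 CPM, against 6.29 and 1.83 CPM (4.96, SE 0.89, adjusted p = 0.00399), and Rnu2-10 6047 CPM, against 1209 and 430 CPM (2.88, SE 0.71, adjusted p = 0.0130). Snord118 (U8) and Rnu12 (U12) were higher by 2.20 and 2.08 (adjusted p = 0.0329 and 0.0446), but turned below 0 with TMM or DESeq2 factors and did not pass without input 2. Under the 3 other scalings Rnu5g was at 1.03 to 1.70 and Rnu2-10 at 0.45 to 0.97, neither passing, and Snord13 was at 3.05 without passing when scaled to the tested classes. Rnu1 had 3069 CPM, against 5035 and 5083 CPM (-0.72, SE 0.56, adjusted p = 0.293), and passed as lower under the 3 other scalings, at -2.65 to -3.27. Rnu7 had 56.6 CPM, against 1582 and 422 CPM (-4.15, SE 1.68, adjusted p = 0.0698), and passed as lower with DESeq2, with no filter on low counts, in the fit of the 3 libraries alone and without either input. Rnu3 (1.85) did not pass, but passed as higher with no filter, in the 3 libraries alone and without input 1 (2.62), and turned below 0 under the 3 other scalings. Rnu11 (0.69) did not pass either, and passed as lower with DESeq2 (-1.70). Of the triphosphate RNAs, Rn5s had 21951 CPM, against 7184 and 6495 CPM (1.68, SE 0.49, adjusted p = 0.0236), and the RNase P RNA Rpph1 65.4 CPM, against 20.1 and 10.8 CPM (2.08, SE 0.68, adjusted p = 0.0360). Both turned below 0 with TMM or DESeq2 factors, Rn5s also when scaled to the tested classes. Rn5s did not pass when all 4 replicated groups were fitted (adjusted p = 0.0551 by edgeR), nor Rpph1 without either input. Rny1, Rn7s (7SL), Rn7sk, Rny3, Rnu6 (U6) and Rmrp did not pass, with log2 fold changes from -0.95 to 0.94. With DESeq2, Rn7sk (-3.26), Rny3 (-2.79), Rnu6 (-2.37), Rmrp (-2.25) and Rn7s (-1.51) passed as lower, Rn7sk also with TMM factors (-3.40).

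For miRNA hairpins the scale was the hairpin reads of each library, 2860021 in the ligation library and 459426 and 335448 in inputs 1 and 2, so the order within miRNAs was compared. Values are given as hairpin CPM, counts scaled to 1000000 hairpin reads. Of 484 hairpins tested, 79 were higher (16.3%) and 134 lower (27.7%). The ligation library lay above both inputs in 174 (36%) and below both in 254 (52.5%), and the median hairpin was at -0.70. On library totals the split was 205 higher and 38 lower with a median of 1.69, with TMM factors 115 and 142 (-0.38), and with DESeq2 107 and 114 (-0.10).

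The miR-290-295 cluster, the most abundant miRNAs of mouse embryonic stem cells, kept a large share, 46.4% of hairpin reads in the ligation library, against 58.3% and 60.6% in the inputs, but the order of its members differed. Mir294 (chr7:3220641-3220724) had 11685 hairpin CPM in the ligation library, against 202940 and 254415 in the inputs, where it ranked first; it ranked 15 in the ligation library (log2 fold change -4.29, SE 0.48, adjusted p = 1.94e-05). Mir291a (chr7:3218919-3219000) had 13970.5, against 123905 and 96376 (-2.98, SE 0.46, adjusted p = 0.000208). Mir293 (chr7:3220343-3220422) had 142537, against 27935 and 21351, and ranked 2, against 7 and 8 (2.53, SE 0.48, adjusted p = 0.00081). Mir292 (chr7:3219189-3219270) ranked first in the ligation library with 270120, against 141085 and 161840, a difference that did not pass (0.83, SE 0.35, adjusted p = 0.0629) but did with TMM factors (1.15), DESeq2 (1.42) and library totals (2.94). Mir295 had 22101, against 69210 and 54620 (-1.49, SE 0.47, adjusted p = 0.0197), and was at -0.88 with DESeq2, without passing, and at 0.55 on library totals. Mir291a did not pass on library totals (-0.95). With each distinct sequence counted once, Mir292 turned and passed as lower (-0.47). Of the list's 8 tested members, 1 was higher and 6 lower, with a median of -2.19, set beside -0.70 over all hairpins. The list's median was -1.86 with TMM factors, -1.59 with DESeq2 and -0.15 on library totals.

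The same hairpin could differ between its arms. miR-292a-5p had 242479 hairpin CPM, against 65249 and 92515, whereas the region 3′ of the loop of Mir292 had 27499, against 74380 and 66049. The arms with the seed AAGUGCU summed to 41009 in the ligation library, against 373851 and 388037, over 5 arms of which 3 lay below both inputs. miR-294-3p had 11091, against 197677 and 248164, and miR-291a-3p 8141, against 110877 and 89307. The seed CUCAAAC showed both directions. miR-293-5p, like miR-292a-5p above both inputs, had 56073, against 7183 and 9158, but miR-290a-5p had 3450, against 15080 and 14366. The seed AAAGUGC, shared by miR-17-5p, miR-20a-5p and 4 other arms of the miR-17 family, overlaps AAGUGCU when shifted by 1 base and summed to 32177, against 7394 and 4603, with 5 of 6 arms above both inputs. All 3 arms with the miR-30 seed GUAAACA lay above both inputs, and 4 of 5 with the miR-15/16 seed AGCAGCA below both. Over all 243 arms with at least 100 hairpin CPM, 120 lay above both inputs and 100 below both. In the other seed groups compared, 2 of 5 arms lay above both and 2 below both for AUUGCAC. The counts were 2 and 1 of 3 for AAUACUG, 3 and 1 of 5 for GAGGUAG, and 0 and 2 of 3 for AGUGCAA. No arm was tested on its own.

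Arms of the 5′ side made up 66.4% of mature reads in the ligation library, against 30.5% and 32.0%. With reads outside the listed arms placed by their side of the hairpin's midpoint, the share was 63.2%, against 33.0% and 37.7%. Counting each distinct sequence once, the share was 53.6%, against 55.9% and 53.6%. Reads within 2 nt of a mature 5′ end made up 86.2% of hairpin reads, against 71.8% and 74.1%. That share leaves out arms with no entry in the table used. With the 3′ side of Mir292 and the 5′ side of Mir135b counted as mature it was 89.1%, against 81.1% and 82.8%. Of the reads near a listed start, 96.2% began exactly at the RefSeq start, against 86.2% and 82.2%. Over 243 arms with at least 100 hairpin CPM, the median log2 ratio of the ligation library to the inputs' mean was 0.20, with 120 arms above both inputs and 100 below both. It was 0.47 for 108 arms that begin with U, -0.33 for 71 that begin with A, 0.93 for 42 with C and -0.22 for 22 with G.

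Outside the cluster, several abundant miRNAs changed rank. Mir21a, a miRNA of many tissues, had 45746 hairpin CPM, against 3095 and 2334, and ranked 3, against 32 and 41 (4.07, SE 0.51, adjusted p = 3.6e-05). Mir7-1 with Mir7-2 had 35698, against 3189 and 3303 (3.46, SE 0.50, adjusted p = 0.000117), Mir20a 17832, against 2595 and 1968 (2.97, SE 0.61, adjusted p = 0.00136), and Mir182 23209, against 5328 and 5992 (2.04, SE 0.50, adjusted p = 0.00484). Mir96, transcribed next to Mir182, went the other way with 2245, against 14157 and 18817 (-2.88, SE 0.58, adjusted p = 0.00117), and so did Mir135b with 1928, against 17999 and 21729 (-3.36, SE 0.57, adjusted p = 0.000355). On library totals Mir96 (-0.75) and Mir135b (-1.25) did not pass. With each distinct sequence counted once, which sets abundance aside, Mir21a was at 0.11, Mir7-1 with Mir7-2 at 0.11, Mir182 at 0.065, Mir20a at -0.26 and Mir135b at -0.079, none of them passing, and neither did Mir293 of the cluster, at -0.054. Of the most abundant hairpins, Mir92-1 had 20678, against 11377 and 15362 (0.63, SE 0.48, adjusted p = 0.284). Snord43, a gene annotated as a miRNA under a snoRNA name, had 27503, against 47836 in input 1 and 1234 in input 2, so the ligation library lay between the inputs (0.16, SE 1.06, adjusted p = 0.897); without input 1 its value was 4.48, which passed. The largest 10 hairpins of the ligation library shared 4 members with those of input 1 and 3 with those of input 2, while the inputs shared 9 with each other. Of the largest 50 the counts were 29, 27 and 44, and the ligation library shared 42 with the wildtype ligation library.

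**Figure D5:**
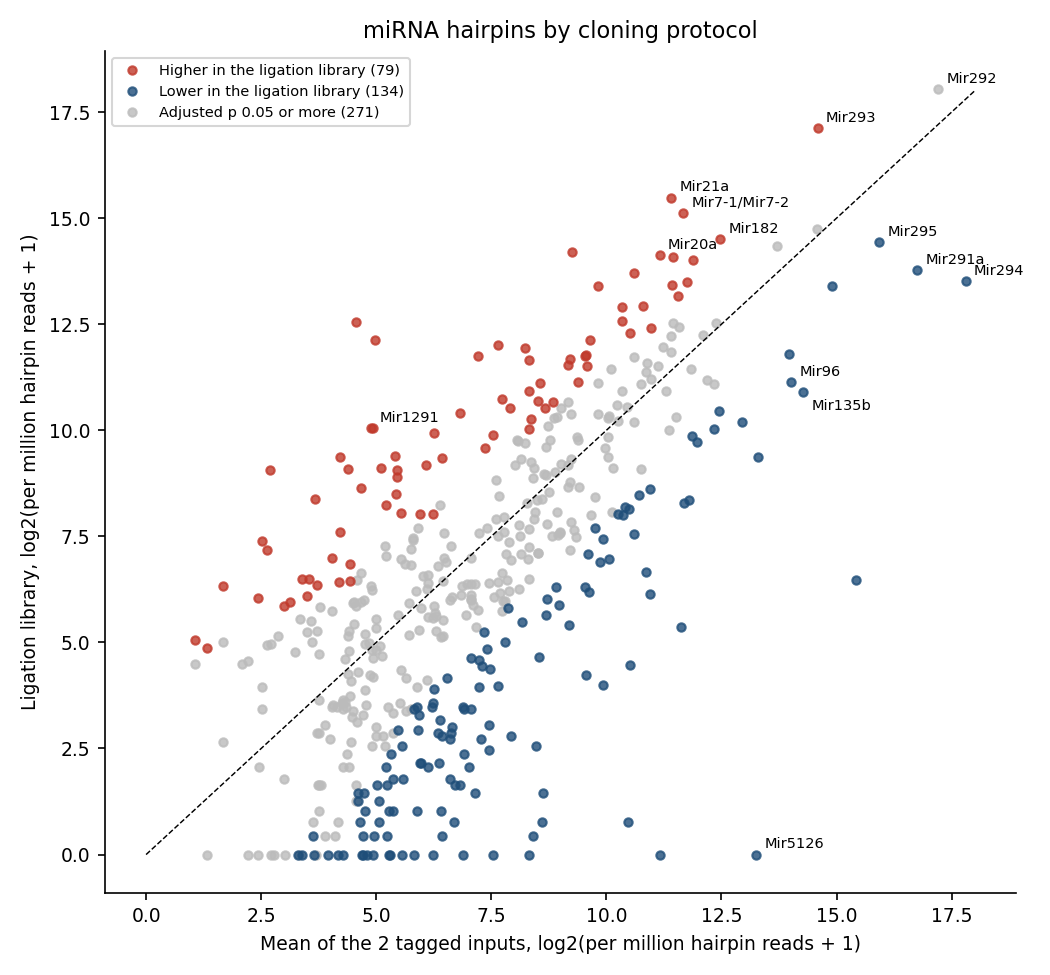
Each point is 1 of the 484 tested hairpins, with the mean of inputs 1 and 2 on the x axis and the ligation library on the y axis, both as log2(hairpin CPM + 1). Colours mark the 79 hairpins higher and the 134 lower in the ligation library by edgeR, and the dashed line marks equal values. Mir293 and Mir21a lie above the line and Mir294, Mir291a and Mir135b below it.

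Among the named hairpins, the 3 largest increases were in genes with no miRNA name. Gm44391 with Gm44469 had 5960 hairpin CPM, against 6.53 and 38.8 (8.10, SE 1.10, adjusted p = 7.31e-05), and Gm47291 with Gm49349 4500, against 13.1 and 47.7 (7.24, SE 0.85, adjusted p = 2.28e-05). Reads found in Gm49349 alone had 537, against 10.9 and 0. Mir1291 had 1062 hairpin CPM, against 21.8 and 35.8 (5.21, SE 0.74, adjusted p = 0.00011), and Mir881 166, against 6.53 and 2.98 (5.03, SE 0.91, adjusted p = 0.000568). Gm47285 with Gm47301, which ranked 9 in the ligation library, had 18785, against 514 and 709 (4.94, SE 0.56, adjusted p = 1.94e-05), while reads shared with Gm47276 and Gm47281 had 10867, against 27410 and 33695 (-1.49, SE 0.51, adjusted p = 0.0266), which did not pass with DESeq2 or without input 2. Near-identical copies thus gave opposite results and are uncertain. In the Dicer-null ligation library, scaled to its own hairpin reads, Gm44391 with Gm44469 had 37771 hairpin CPM and Gm47291 with Gm49349 30816. Gm47285 with Gm47301 had 305065 there and Mir1291 6644, while Mir881 had 0.895. Whether the reads of these entries are miRNAs released by Dicer was not tested. Mir5126 had no read in the ligation library, against 3901 and 15624, which at a floor of 3 reads was at least 3719-fold lower than input 1 and at least 14895-fold lower than input 2. Gm23935 with Gm24245 and Gm24270 had 87.4, against 36959 and 50288, where it ranked 6 and 5 (-8.96, SE 0.73, adjusted p = 9.03e-07). Reads found in Mirlet7c-1 alone had 0, against 54.4 and 313, at least 51.9-fold lower than input 1 and 298-fold lower than input 2. Reads it shares with Mirlet7c-2 had 125.5, against 80.5 and 95.4 (0.51, SE 0.68, adjusted p = 0.569). Of the 10 lowest hairpins 7, and of the 10 highest 6, have no miRNA name. The share of such entries among all hairpins tested was not counted, so it is unknown whether these counts exceed it. Hairpins with a Mir symbol took 9.47% of all reads in the ligation library, against 2.62% and 1.59%.

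Other miRNA families are read against the 16.3% higher and 27.7% lower over all hairpins. Of 17 members of miR-17-92 and its paralogs, which promote proliferation, 4 were higher and 1 lower with a median of 0.69, and they took 7.15% of hairpin reads, against 3.65% and 3.54%. On library totals 13 were higher, and with TMM factors or DESeq2 8 were. Of the let-7 family, which marks differentiation, 9 members were tested, with 2 higher and 2 lower and a median of 1.61. They took 0.176% of hairpin reads, against 0.0664% and 0.0751%. With TMM factors 5 were higher and 2 lower, with DESeq2 3 and 2, and on library totals 6 and 2 of 10. Mirlet7g had 645 hairpin CPM, against 107 and 62.6 (2.92, SE 0.74, adjusted p = 0.00534), and did not pass without input 2 (2.60). Of 5 tested members of the miR-302 cluster, also of stem cells, none was higher and 1 lower with a median of -1.42, which was 0.60 on library totals. Mir302a had 137, against 422 and 310 (-1.42, SE 0.71, adjusted p = 0.111).

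The files held 27829938 reads in the ligation library and 14956146 and 18579602 in inputs 1 and 2. The 15 genes fixed as stem-cell markers, 7 miR-290-295 hairpins and 8 protein-coding genes, were all read in these libraries and summed to 47757 CPM, against 17936 and 10948 CPM. In these sums a read shared by copies of a gene counts once for each copy. Fibroblast markers summed to 178 CPM, against 18.5 and 9.53 CPM, with 3 of 8 at 0 in all 3 libraries. The neural miRNA genes are copies of Mir9 and Mir124a that share most reads, so 1 copy of each is given. Mir9-1 had 63.1 CPM, against 9.09 and 6.51 CPM, and Mir124a-1 19.6 CPM, against 14.7 and 9.96 CPM. Blood, liver and muscle markers lay at or under 4.42 CPM in every one of the 3 libraries. Their part in the differences was not tested.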

How the data were processed

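The deposited files hold distinct read sequences with raw counts of reads, which the authors did not normalise, judging from the whole numbers in the files. Trimming and earlier steps are not given in the sources used here. RNA of the ligation library was cloned with the NEBNext kit and that of the inputs by circularization, per the labels' protocols. Each sequence of at least 18 nt without N was matched exactly, on its strand, to GENCODE M21 transcripts (GRCm38), since no genome was used; sequences in several classes were given to the first class in a fixed order, with hairpins first. Unnamed snoRNA genes were put into box classes by length and by an ACA or CTGA near the 3′ end. Fits used edgeR 4.0.16 in R 4.3.3 (glmQLFit, glmQLFTest, filterByExpr defaults, Benjamini-Hochberg at 0.05) on counts of the ligation library, the 2 tagged and the 2 untagged inputs, with 2 residual degrees of freedom. Standard errors are the fold change over the square root of its F statistic. The scale was hairpin reads for hairpins and all reads for other genes. DESeq2 1.42.0 was an alternative. The fits were tested on simulated counts with known changes. In these simulations every library was given the same spread, so they cannot check whether the lone ligation library varies like the inputs. Single shares were compared by exact permutation. Tables used Python 3.11.15, numpy 2.4.6 and pandas 2.3.3, and plots matplotlib 3.10.9. Reads may be PCR copies of 1 molecule, so a floor of 3 reads covers counting error only; it was 0.108 CPM in the ligation library and 0.201 and 0.161 CPM in inputs 1 and 2.

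Named hairpins were the 10 highest and 10 lowest called with at least 100 hairpin CPM in either group and outside the inputs' range, the 10 most abundant of either group and 3 of each miRNA list. Named small RNA genes were the 8 highest and 8 lowest with at least 10 CPM and members of the cap and triphosphate lists with at least 1000 reads in 1 library. Genes named for their read ends or their sequences were picked after their values were seen. The members, lists and comparisons were chosen with earlier results of these data known.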

Additional observations from a re-analysis of the deposited data

How the results depend on the processing

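Of 289 alternative values of the main comparisons, 242 kept their direction, or, for counts, stayed within 1.5 times. The cause was not tested where others did not, except that counting each distinct sequence once sets aside abundance. All ratios here are the ligation library over the inputs' mean, and fold changes are log2. Tagged and untagged inputs of the same number share a title code and deviated together (r = 0.47 over 484 hairpins and 0.58 over 528 other genes), but with 2 pairs and no label that says what the code marks, the block was an alternative only. With a replicate block on the inputs, which leaves 1 residual degree of freedom, 118 hairpins were higher and 186 lower, and 350 other genes higher and 59 lower; every gene called without the block kept its call, and of the named genes Mir302a (-1.42), Rnu7 (-4.43) and Rnu3 (1.98) passed in addition. With each distinct sequence counted once, ratios turned to 0.701 for hairpins, 0.370 for mitochondrial tRNA, 0.984 for the 7SK, 7SL, Y and related RNAs, 0.728 for rRNA genes, 1.22 for start windows, 2.07 for long non-coding and other RNA, 0.812 for reads of 20 to 24 nt, 1.24 for a first A, 1.32 for a first C in hairpins, 0.436 for 5′ ends in start windows, 0.979 for 5p arms and 0.985 for reads at a mature start; it gave 37 higher and 43 lower hairpins and 158 higher small RNA genes, and fold changes of -0.054 (Mir293), -0.26 (Mir20a), -0.47 (Mir292), -0.18 (Mir92-1), 0.097 (Mir302a), -0.63 (Mir25), -0.50 (Mirlet7g), 0.13 (Rnu1), -0.052 (Rnu11), -0.034 (Rn5s), -0.51 (Rny1), 0.27 (Rn7sk), -0.30 (Rnu6) and -0.48 (Rmrp). As a share of matched reads the ratios were 0.608 for mitochondrial tRNA, 0.584 for snRNA, 0.440 for 7SK and related RNAs, 0.407 for rRNA and 0.753 for other protein-coding reads; with sequences of several classes set apart rRNA was at 0.988. Settings chosen after the data were seen gave 0.373 for mitochondrial tRNA with CCA-ended reads and 0.864 for 5′ ends in start windows without Itsn1. In reads of 20 to 24 nt a first A was at 1.96, a first C at 0.959 and a first C in hairpins at 1.22, and 5 of the top 10 hairpins were shared with input 2. In reads of 18 to 37 nt, also chosen afterwards, the 20 to 24 nt share was at 0.974 and capped 5′ ends at 1.05; in reads of 18 to 39 nt capped 5′ ends were at 1.06, Rnu12 at -0.54 and Rn7sk at 0.18. Capped 5′ ends were at 2.65 within 10 nt, and start-window 5′ ends at 0.844 within 2 nt. On library totals 205 hairpins were higher and 38 lower, and Mir295 was at 0.55, the reads shared by Gm47276, Gm47281, Gm47285 and Gm47301 at 0.62, Mir302a at 0.60 and Mir302d at 1.41 (0.082 with DESeq2). Scaled to the tested classes, 98 small RNA genes were higher and 48 lower, and Rnu3 was at -0.064, Rnu11 at -1.23, Rn5s at -0.24, Rny1 at -0.99, Rn7s at -1.08, Rnu6 at -1.83 and Rmrp at -1.80. TMM factors gave 90 and 80, with Snord118 at -0.26, Rnu12 at -0.40, Rnu3 at -0.60, Rnu11 at -1.83, Rn5s at -0.86, Rpph1 at -0.40, Rny1 at -1.61, Rn7s at -1.64, Rnu6 at -2.49 and Rmrp at -2.38. DESeq2 gave 100 and 112, with the same genes in that order at -0.13, -0.27, -0.47, -1.70, -0.73, -0.27, -1.49, -1.51, -2.37 and -2.25. Leaving out either input gave 38 to 50 higher hairpins, against 79, and ranges of 0.987 to 1.07 for 20 to 24 nt, 0.447 to 8.23 for capped 5′ ends, 0.817 to 2.04 for start-window 5′ ends, 0.996 to 1.02 for a last C, -0.80 to 4.48 for Snord43, -0.98 to 0.091 for Mir302d, -0.053 to 0.35 for Mir25, -0.96 to 0.26 for Rny3, -0.14 to 0.39 for Rnu6 and -0.14 to 0.44 for Rmrp. With 1 ligation library no difference has a replicate check on its own side, and the read end of 40 nt hides how long snoRNA pieces were.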

Other observations

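Reads were also grouped by their first 15 bases, whatever they matched. The largest such family held 10.1% of reads in the ligation library, against 2.98% and 2.08% in inputs 1 and 2 for the largest family of each. The 10 largest families of the ligation library summed to 23.4% of its reads, against 0.879% and 0.377% of the inputs' reads. The 10 largest families of the inputs summed to 0.0981% of the ligation library, against 11.1% and 8.95% of the inputs.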
